A study of Rattus norvegicus with 6 samples.

Results

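The genes of MHC class II antigen presentation were followed in the livers of rats with hepatic fibrosis (FL group) and control rats (CL group). The 10 members were the rows of the deposited expression table whose symbol equals RT1-Ba, RT1-Bb, RT1-Da, RT1-Db1, RT1-DMa, RT1-DMb, Cd74, Ciita, Cd86 or Cd40, out of 19616 genes in all. All 10 had exactly 1 row. Male SD rats, an outbred stock, were injected intraperitoneally with equal parts of CCl4 and olive oil in the FL group, and with olive oil alone in the CL group, in both at a volume of 2 mL/kg given 2 times weekly over 5 weeks. CCl4 is a solvent toxic to hepatocytes. RNA of whole liver was sequenced after removal of ribosomal RNA from 3 rats of each group, with 1 library per rat. The age of the rats was not given in the sources used here. Values for single rats stand in the order CL5, CL6, CL7 for the CL group and FL2, FL5, FL12 for the FL group. Their unit is FPKM, fragments scaled to transcript length and to the mapped fragments of the library, so levels can be compared between genes per length, while the depth of each rat's library is not known. Of 8 hepatocyte markers, Alb, the albumin gene, was the most abundant, with 31431 to 33392 FPKM in the CL rats and 24149 to 25209 FPKM in the FL rats, as the labelled tissue requires.

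MHC class II molecules are pairs of an alpha and a beta chain that show peptides of ingested proteins to helper T cells. They are made mainly by dendritic cells, B cells and macrophages, and in liver Kupffer cells and sinusoidal endothelium can carry them as well. The invariant chain, encoded by Cd74, holds the groove of newly made chains until lysosomal proteases trim it away, and the DM molecule then exchanges the remaining fragment for a peptide. Ciita is the transactivator that switches on the chains, Cd74 and DM together, while Cd86 and Cd40 encode surface proteins through which a presenting cell gives and receives costimulation. In the rat the class II region is called RT1, with RT1-B and RT1-D as its classical molecules.

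Of the 10 members, 7 were higher in the FL group and 0 were lower. These were the 4 classical chains, Cd74, Ciita and Cd86, with log2 fold changes from 1.11 to 2.02, whereas Cd40 did not pass the test and RT1-DMa and RT1-DMb lay below the filter on low values. Calls required both a limma p, Benjamini-Hochberg adjusted, under 0.05 and a 2-fold change. They were made on log2(FPKM + 0.1), which understates the change of low genes, over the 14864 genes averaging 0.1 FPKM or more. Among all genes tested, 9.29% were called higher and 0.935% lower. At an unadjusted limma p under 0.05, the members again counted 7 higher and 0 lower, where 31.5% of all genes tested were higher and 4.04% lower. The 8 members tested had CL means above 0.1 FPKM themselves, so none entered the test through the FL rats alone. Their median log2 fold change was 1.80, against 0.29 for all genes tested. Every FL rat lay above every CL rat for the same 7 genes, a separation that held for 35.7% of all genes tested. The members together summed to 43.97, 56.00 and 53.55 FPKM in the CL rats, against 206.61, 157.78 and 169.97 FPKM in the FL rats. Because whole liver was sequenced, more cells that carry class II and more class II RNA per cell cannot be told apart.

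**Figure D1:**
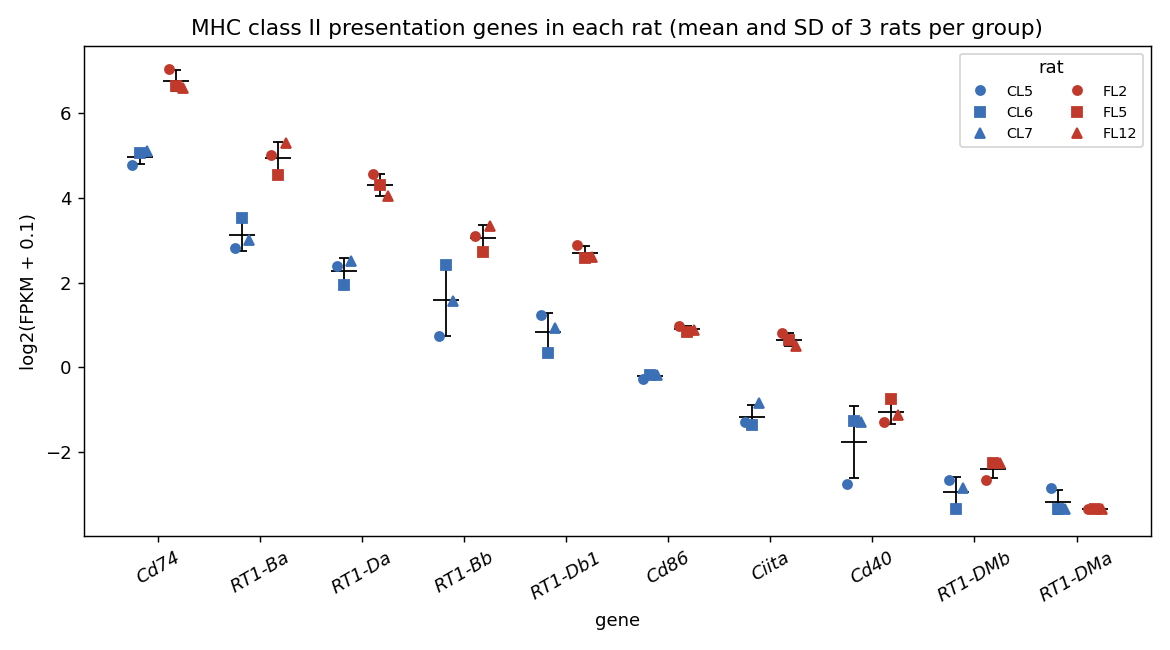
Expression of the 10 members on the log2(FPKM + 0.1) scale (vertical axis), with 1 point per rat (shape) and the mean and SD of 3 rats per group (black; blue CL, red FL). The red points lie above the blue points for Cd74, the 4 classical chains, Cd86 and Ciita, overlap with them for Cd40, and RT1-DMa and RT1-DMb sit near the floor in both groups.

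RT1-Da, the alpha chain of the RT1-D molecule (ENSRNOG00000032844, chromosome 20), read 5.11, 3.74 and 5.58 FPKM in the CL rats, against 23.58, 19.42 and 16.29 FPKM in the FL rats. The groups were far apart, with FL2 highest and CL6 lowest. Its mean rose 4.11-fold, from 4.81 ± 0.956 to 19.8 ± 3.66 FPKM (SD over 3 rats), and its log2 fold change of 2.02 had a standard error (SE) of 0.19 (limma, adjusted p = 0.00168). RT1-Db1, the beta chain of that molecule (ENSRNOG00000033215, chromosome 20), was less abundant, with 2.24, 1.16 and 1.79 FPKM in the CL rats, against 7.33, 5.87 and 5.96 FPKM in the FL rats. Again CL6 was lowest and FL2 highest, without overlap of the groups. Its log2 fold change was 1.86 (SE 0.24, limma adjusted p = 0.00414).

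RT1-Ba, the alpha chain of the RT1-B molecule (ENSRNOG00000000451, chromosome 20), read 6.88, 11.44 and 7.86 FPKM in the CL rats, against 32.15, 23.00 and 38.73 FPKM in the FL rats. Here CL6 was the highest CL rat and FL12 the highest FL rat, unlike for the RT1-D chains, and the groups did not overlap. The log2 fold change was 1.83 (SE 0.24, limma adjusted p = 0.00451). RT1-Bb, its beta chain partner (ENSRNOG00000032708, chromosome 20), read 1.58, 5.24 and 2.87 FPKM in the CL rats, against 8.42, 6.53 and 9.99 FPKM in the FL rats. The groups did not overlap, but CL6 came close to FL5, and the rats ranked within each group as they did for RT1-Ba. Its log2 fold change of 1.47 had the largest error of the chains (SE 0.38, limma adjusted p = 0.0343). Over 14 alternatives its limma adjusted p ranged from 0.0201 to 0.115, and the call was lost in 9 of them. Among these were leaving out CL5 (log2 fold change 1.06, limma adjusted p = 0.0677), CL7 (1.47, 0.107), FL2 (1.45, 0.066), FL5 (1.63, 0.0795) or FL12 (1.33, 0.115).

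Cd74 (ENSRNOG00000018735, chromosome 18) was the most abundant member in each rat, with 26.97, 33.03 and 33.86 FPKM in the CL rats, against 131.23, 99.21 and 95.48 FPKM in the FL rats. The lowest FL rat stood well above the highest CL rat. The means differed 3.47-fold, and the SE of the log2 fold change of 1.79 was 0.16, the smallest among the 8 members tested (limma adjusted p = 0.00165). Ciita (ENSRNOG00000002659, chromosome 10) was low in both groups, at 0.31, 0.29 and 0.46 FPKM in the CL rats, against 1.65, 1.46 and 1.32 FPKM in the FL rats. FL2 was highest and the groups were apart. Its log2 fold change was 1.81 (SE 0.24, limma adjusted p = 0.00487). The call was lost in 1 of 13 alternatives, a pseudocount of 1, which weighs down low genes (0.87, limma adjusted p = 0.00527, with a range of 0.00467 to 0.0325 over the alternatives).

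The DM genes could not be assessed. RT1-DMa (ENSRNOG00000047864, chromosome 20) read 0.04 FPKM in CL5 and was listed at 0 in the other 5 rats. RT1-DMb (ENSRNOG00000051002, chromosome 20) was listed at 0 in CL6 and read 0.04 to 0.11 FPKM elsewhere, with FL2 at the level of CL5. The authors counted uniquely mapped reads only, and the table holds another row on chromosome 20, LOC100909593, described as an M alpha chain-like class II gene, which was listed at 0 in 5 rats and at 0.02 FPKM in FL5. Whether reads of DM were lost between such copies was not tested.

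Of the costimulatory members, Cd86 (ENSRNOG00000038835, chromosome 11), a ligand of Cd28 and Ctla4 on T cells, read 0.73, 0.78 and 0.78 FPKM in the CL rats, against 1.88, 1.68 and 1.73 FPKM in the FL rats. Both groups were tight and apart from each other. Its log2 fold change was 1.11 (SE 0.18, limma adjusted p = 0.00752), the smallest of the 7 that were called. Median scaling (0.90, limma adjusted p = 0.0187), quantile normalization (0.59, 0.0923) and a pseudocount of 1 (0.65, 0.00848) each ended the call, and over its 14 alternatives the adjusted p ranged from 0.00766 to 0.0923. Cd40 (ENSRNOG00000018488, chromosome 3), the receptor of the T cell ligand Cd40lg, read 0.05, 0.32 and 0.31 FPKM in the CL rats, against 0.31, 0.50 and 0.36 FPKM in the FL rats. FL2 equalled CL7 and lay below CL6, and the log2 fold change of 0.71 did not pass the test (SE 0.47, limma adjusted p = 0.306).

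Within the CL group the order of levels was Cd74, RT1-Ba, RT1-Da, RT1-Bb, RT1-Db1, Cd86, Ciita and Cd40, followed by RT1-DMb and RT1-DMa. The place of the DM genes is that of the listed values only, since these genes could not be assessed. In the FL group the means stood in the same order. Neighbours whose ranges over the rats overlapped were RT1-Da with RT1-Bb, RT1-Bb with RT1-Db1, Ciita with Cd40, Cd40 with RT1-DMb and RT1-DMb with RT1-DMa in the CL group, and RT1-Ba with RT1-Da and RT1-Bb with RT1-Db1 in the FL group. Compared within each rat, the higher gene of these pairs led in 2 of 3 CL rats for each CL pair and in 3 of 3 FL rats for both FL pairs, and these orders were not tested. In both classical molecules the mean FPKM of the alpha chain was above that of the beta chain.

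To compare the members without the scaling between rats, 6 log2 ratios were formed within each rat. On the log2 scale Cd74 stood 2.97, 3.00 and 3.09 above the mean of the 4 classical chains in the CL rats, against 3.15, 3.10 and 2.77 above it in the FL rats. The groups overlapped, and the difference of their means was -0.01 (exact permutation test, two-sided p = 1.0). The RT1-Ba to RT1-Bb ratio was 1.53 ± 0.48 in the CL group and 1.89 ± 0.08 in the FL group (SD, n = 3, exact permutation p = 0.4). The RT1-Da to RT1-Db1 ratio was 1.45 ± 0.26 and 1.61 ± 0.15 (exact permutation p = 0.5). With 3 rats against 3 the smallest two-sided p is 0.1, so no ratio could pass 0.05, and none of the 6 did after Benjamini-Hochberg adjustment (lowest adjusted p = 0.6). That lowest value came from RT1-DMa to RT1-DMb, with a difference of -0.71 between genes near 0 FPKM, which became -0.10 with a pseudocount of 1 and -2.39 with 0.01.

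Set against leukocyte and macrophage genes, Cd74 showed no separation either. The log2 ratio of Cd74 to Ptprc (CD45, on all leukocytes) was 3.25 ± 0.19 in the CL group and 3.57 ± 0.38 in the FL group (SD, n = 3, exact permutation p = 0.3, adjusted p = 0.75), with FL2 the highest rat and FL5 below CL6 and CL7. Without FL2 the difference of 0.32 between the group means was 0.11. The log2 ratio of Cd74 to Cd68, a lysosomal protein of macrophages, differed by 0.09 between the group means (exact permutation p = 0.9, adjusted p = 1.0), with FL2 the highest rat and FL5 the lowest. It was -0.09 without FL2 and 0.33 without FL5. A p above the threshold does not show that these ratios were equal. Ptprc itself read 3.12 to 3.25 FPKM in the CL rats, against 8.12 to 10.19 FPKM in the FL rats. Cd68 read 11.22 to 12.40 FPKM in the CL rats, against 31.81 to 48.48 FPKM in the FL rats.

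Some markers of cells that can carry class II were called higher, and their part in the members' change was not tested. All 4 leukocyte markers (Ptprc, Cd53, Laptm5 and Coro1a) were called higher, where 9.29% of all genes tested were. They summed to 15.56 to 16.65 FPKM in the CL rats, against 42.14 to 53.72 FPKM in the FL rats, with Laptm5 the most abundant. With quantile normalization 3 of the 4 were called, without Coro1a. Of 14 macrophage and Kupffer cell markers, 5 were called higher (Cd68, Csf1r, Marco, Aif1 and Lyz2) and 0 lower by limma. Over all genes tested, the shares were 9.29% and 0.935%. The median log2 fold change of these 14 markers was 0.76, against 0.29 for all genes tested. At an unadjusted limma p under 0.05, 13 were higher and 0 lower, against the 31.5% and 4.04% of all genes tested. Csf1r was not called without FL5, nor Aif1 without CL7, FL2 or FL5 or with a pseudocount of 1, and both lost their calls with median scaling and quantile normalization (for Aif1, limma adjusted p from 0.00979 to 0.0966 over its 14 alternatives). Without FL12, 7 were called, with Timd4 (log2 fold change 1.75, limma adjusted p = 0.0294) and Cd5l (1.18, limma adjusted p = 0.0148) added. The list summed to 239.68, 224.18 and 228.01 FPKM in the CL rats, against 493.92, 500.04 and 305.51 FPKM in the FL rats. C1qc, a complement subunit and the most abundant of them by the mean over the 6 rats, read 39.64 to 43.66 FPKM in the CL rats, against 77.43, 81.39 and 47.26 FPKM in the FL rats. Clec4f, a lectin that defines Kupffer cells in rodents and the most abundant of the list in the CL group, read 49.90, 43.18 and 48.37 FPKM in the CL rats, against 66.59, 57.44 and 26.27 FPKM in the FL rats. FL12 was thus the lowest FL rat in the macrophage sum, as it was for Cd74, RT1-Da and Ciita, whereas for RT1-Ba and RT1-Bb it was the highest.

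Of 12 dendritic cell markers, 2 were called higher, the integrin Itgax (log2 fold change 2.49, limma adjusted p = 0.01) and the lectin Clec10a (1.62, limma adjusted p = 0.0105), whose call was lost without FL5 and with a pseudocount of 1 (limma adjusted p from 0.00454 to 0.0525 over its 14 alternatives), and 0 lower, against 9.29% and 0.935% of all genes tested. Without FL2, 4 were called, with Fscn1 and Siglech added. At an unadjusted limma p under 0.05, 7 were higher and 0 lower, against 31.5% and 4.04%. Without Siglech and Ccr7, which passed the filter through the FL rats, 6 of 10 were higher. Xcr1 and Clec9a, which define cross-presenting dendritic cells, read 0.08 to 0.32 and 0.25 to 0.48 FPKM over the 6 rats and overlapped between groups. The list summed to 10.99 to 12.65 FPKM in the CL rats, against 15.79 to 20.72 FPKM in the FL rats, with Cd1d1, at 7.19 to 10.94 FPKM, as the most abundant. Of 8 B cell markers, 4 passed the filter and 0 were called by limma. At an unadjusted limma p under 0.05, 1 was higher and 0 lower, against 31.5% and 4.04% of all genes tested. Without FL12, 1 was called, Cd79a (log2 fold change 1.26, limma adjusted p = 0.0406). The 8 summed to 1.32 to 1.54 FPKM in the CL rats, against 2.07 to 3.38 FPKM in the FL rats. Blk was the most abundant in the CL group and Cd79a in the FL group, and the defining markers Ms4a1 and Pax5 lay at 0 to 0.27 FPKM. Among 5 monocyte markers Cx3cr1 and Ly86 were called higher and 0 lower, against 9.29% and 0.935% of all genes tested. At an unadjusted limma p under 0.05, 3 were higher and 0 lower, against 31.5% and 4.04%. Their sum was 18.37 to 22.39 FPKM in the CL rats, against 14.73 to 27.18 FPKM in the FL rats, with Cd14 the most abundant of the 5. Cd14 went the other way without passing the test, from a mean of 13.62 FPKM in the CL group to 9.11 FPKM in the FL group, with 4.02 FPKM in FL12 (log2 fold change -0.70, limma adjusted p = 0.237). Cx3cr1 was called in 8 of 13 alternatives, and not without CL7, FL5 or FL12, with a pseudocount of 1 or with quantile normalization (limma adjusted p from 0.0126 to 0.0638). Ly86 was called in 5 of 14, and not without CL6, CL7, FL2 or FL5, with a pseudocount of 1, without a filter, with either scaling or with limma without trend (limma adjusted p from 0.0211 to 0.151).

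The remaining marker lists described the rest of the tissue. Of 8 T cell markers, 7 were tested, and 1, Cd2, was called higher and 0 lower, against 9.29% and 0.935% of all genes tested. At an unadjusted limma p under 0.05, 3 were higher and 0 lower, against 31.5% and 4.04%. Cd2 was called in 7 of 13 alternatives, and not without CL5, CL6 or FL5, with a pseudocount of 1 or with either scaling (limma adjusted p from 0.0225 to 0.198). With a pseudocount of 0.01, Lck was called as well (log2 fold change 1.05, limma adjusted p = 0.0493). The list, with Lck as its most abundant gene in the CL group and Cd8a in the FL group through FL5, summed to 1.95 to 2.52 FPKM in the CL rats, against 3.52 to 6.93 FPKM in the FL rats. Of 8 stellate cell and myofibroblast markers, 7 were tested. Called higher were 4 (Col1a1, Col3a1, Des and Pdgfrb) and lower 0, against 9.29% and 0.935% of all genes tested. At an unadjusted limma p under 0.05, 6 were higher and 0 lower, against 31.5% and 4.04%. Without FL2, Acta2 was called as well (log2 fold change 2.07, limma adjusted p = 0.00662). The 8 markers, with Col3a1 the most abundant, summed to 71.71 to 78.29 FPKM in the CL rats, against 188.46, 498.85 and 461.0 FPKM in the FL rats. FL2 was thus the lowest FL rat in these genes and the highest in Cd74, RT1-Da, RT1-Db1, Ciita and Cd86. Limma made no call among 8 hepatocyte markers, 5 endothelial markers found in the table or 5 cholangiocyte markers. Of these, 1, 2 and 0 were higher, and 0 lower, at an unadjusted p under 0.05, against 31.5% and 4.04% of all genes tested. For the abundant hepatocyte genes Alb, Ttr and Tf the limma SE was 0.98, 0.42 and 0.48, wide beside the spread between their rats. The test therefore could not decide whether these genes were lower or higher. The 8 hepatocyte markers summed to 48761 to 51229 FPKM in the CL rats, against 41651 to 43302 FPKM in the FL rats, and 4 of them (Alb, Ttr, Apob and Hnf4a) had each FL rat below each CL rat, as did 4.78% of all genes tested. For another 2, Apoa1 and Tf, each FL rat lay above each CL rat, as did 35.7% of all genes tested. Apoa1 read 1126.21 to 1183.17 FPKM in the CL rats, against 1535.26 to 2134.70 FPKM in the FL rats, and Tf 5795.59 to 5973.81 against 6942.99 to 7745.92 FPKM. The median log2 fold change of the 8 was -0.10, and -0.33 with median scaling but 0.29 with quantile normalization. It lay between -0.21 and -0.08 when a rat was left out. The list thus has no settled direction between scalings, although only quantile normalization turned it. The endothelial list, led by Kdr in the CL group and Lyve1 in the FL group, summed to 61.86 to 71.36 FPKM in the CL rats, against 68.03 to 85.15 FPKM in the FL rats, and the cholangiocyte list, led by Epcam, to 5.39 to 7.82 against 5.26 to 10.73 FPKM.

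The machinery around the class II molecule was followed in lists of other pathway genes. Together, 12 of 47 listed genes were called higher and 0 lower, against 9.29% and 0.935% of all genes tested. Of the 47, 40 were tested, with a median log2 fold change of 0.61, against 0.29 for all genes tested. At an unadjusted limma p under 0.05, 24 of the 40 were higher and 0 lower, against 31.5% and 4.04% of all genes tested. Likewise 24 had all FL rats above all CL rats, against 35.7%, and 1, Irf2, had all below, against 4.78%. Both counts of 24 include Cd80 and Ctla4, whose CL means were under 0.1 FPKM and which passed the filter through the FL rats, and both are 22 of 38 without them. For the processing of antigen in endosomes and lysosomes, 5 of 12 genes were called higher and 0 lower, against 9.29% and 0.935% of all genes tested. At an unadjusted limma p under 0.05, 8 of these 12 were higher and 0 lower, against 31.5% and 4.04%. The cysteine protease Ctss, which removes the invariant chain in presenting cells, read 11.12, 8.19 and 9.62 FPKM in the CL rats, against 26.36, 22.11 and 19.17 FPKM in the FL rats. Its groups were apart, with a log2 fold change of 1.22 (SE 0.16, limma adjusted p = 0.00475). Lgmn, the asparaginyl endopeptidase, and Ctsz, a carboxypeptidase, had log2 fold changes of 1.29 and 1.52, and Ctsd, an aspartic protease, and Ifi30, the thiol reductase that opens disulfide bonds of antigens, of 1.19 and 1.11. With median scaling Ctss, Ctsd and Ifi30 fell just short of 2-fold (log2 fold changes of 0.99, 0.97 and 0.89), which left 2 of 12 called. Ifi30 also did so with quantile normalization (0.98). Their limma adjusted p stayed at most 0.0271, 0.0459 and 0.0235 over all alternatives. March1, not called in the main test (log2 fold change 1.34, limma adjusted p = 0.0884), was called without FL2 (1.70, limma adjusted p = 0.0432). Ctsb, the most abundant of the list by its mean over the 6 rats and in the FL group, read 161.46 to 170.03 FPKM in the CL rats, against 261.92 to 338.09 FPKM in the FL rats, and had a log2 fold change of 0.81 (limma adjusted p = 0.0129), short of 2-fold. Ctsl, which takes the place of Ctss in other cells and was the most abundant of the list in the CL group, had a log2 fold change of 0.30 (limma adjusted p = 0.238), with FL5 below CL5.

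Among 17 genes of class II transcription and the interferon gamma response, 15 were tested and 2 of them called higher, where 9.29% of all genes tested were, the myeloid factor Spi1 (log2 fold change 1.52, SE 0.29, limma adjusted p = 0.0127) and the interferon gamma receptor chain Ifngr1 (1.08, SE 0.17, limma adjusted p = 0.00671). Without FL5, 0 of the list were called, with a limma adjusted p for Spi1 of 0.0603 (0.00999 to 0.0603 over its 14 alternatives), and Ifngr1 also lost its call with a pseudocount of 1, median scaling and quantile normalization, each time by the fold limit alone. At an unadjusted limma p under 0.05, 9 of the 15 were higher and 0 lower, and 9 had all FL rats above all CL rats, against 31.5%, 4.04% and 35.7% of all genes tested. Irf8, a factor of myeloid and B cells, had a log2 fold change of 0.998 (limma adjusted p = 0.00414), just short of 2-fold, and was called in 5 alternatives. Rfx5, the X box binding subunit with which Ciita works, read 1.76, 1.64 and 1.59 FPKM in the CL rats, against 2.35, 3.07 and 2.47 FPKM in the FL rats. The groups did not overlap, but the log2 fold change of 0.62 (limma adjusted p = 0.0385) was short of 2-fold. Its partner Rfxank had a log2 fold change of 0.58 (limma adjusted p = 0.0551), and the third subunit, Rfxap, was under the filter. Ifng, the cytokine that induces Ciita, was listed at 0 in 4 rats and read 0.07 FPKM in CL6 and 0.26 FPKM in FL12. Irf1, a transcription factor that it induces, had a log2 fold change of 0.47 (limma adjusted p = 0.181). It was highest in FL2, at 15.10 FPKM against 6.73 to 8.83 FPKM in the other rats. Jak1, the most abundant of the list, read 41.68 to 52.26 FPKM with overlapping groups.

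Of 13 genes of costimulation and of the T cell side, 11 were tested. At an unadjusted limma p under 0.05, 7 were higher and 0 lower, against 31.5% and 4.04% of all genes tested. Without Cd80 and Ctla4, which passed the filter through the FL rats, 5 of 9 were higher. Limma calls were made for 5 genes, all higher, where 9.29% of all genes tested were called higher and 0.935% lower. They were Cd83 (log2 fold change 1.65, limma adjusted p = 0.00487), a surface protein of mature presenting cells, Cd4 (1.25, adjusted p = 0.00308), the coreceptor that binds class II, which rat macrophages carry as well, Cd44 (2.23, adjusted p = 0.00414), the signalling partner of surface Cd74, and the T cell receptors Icos (1.93, adjusted p = 0.0049) and Cd28 (1.46, adjusted p = 0.0239). Cd4 was the most abundant of the list, at 9.93, 8.27 and 8.22 FPKM in the CL rats, against 18.17, 23.85 and 21.32 FPKM in the FL rats. It was apart between the groups and in both lay above the summed T cell markers. Which cells the Cd4 RNA came from was not tested. With a pseudocount of 1, Cd83, Icos and Cd28 lost their calls, which left 2. Cd28 lay under 1 FPKM in each rat, and its call was lost in 7 of 13 alternatives, among them without CL5, CL6, CL7, FL5 or FL12 (limma adjusted p from 0.0201 to 0.126). Cd80, the second ligand of Cd28, read 0.02 to 0.07 FPKM in the CL rats, against 0.16 to 0.48 FPKM in the FL rats. Its test, which it entered through the FL rats, was not passed (log2 fold change 1.37, limma adjusted p = 0.0645). Cd80 was called without FL2 (log2 fold change 1.67, limma adjusted p = 0.0307) and with limma without trend (1.37, limma adjusted p = 0.0398). Ctla4, which also entered through the FL rats, did not pass the test either (log2 fold change 1.57, limma adjusted p = 0.0543). Ctla4 was called without a filter (limma adjusted p = 0.0375), with limma without trend (0.034) and without FL12 (0.0393). Cd274, which encodes the inhibitory ligand PD-L1, had a log2 fold change of -0.33 (limma adjusted p = 0.272).

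Of 5 other class II chains, 4 were found in the table, 2 passed the filter and 0 were called by limma. At an unadjusted limma p under 0.05, 0 were higher and 0 lower, against 31.5% and 4.04% of all genes tested. RT1-DOa and RT1-DOb, the pair that restrains DM in B cells, read 0.08 to 0.40 and 0.10 to 0.51 FPKM over the 6 rats, and the groups overlapped for both (log2 fold changes 0.09 and -0.19, limma adjusted p = 0.895 and 0.799). RT1-DOb was the most abundant of this list. RT1-Db2 and RT1-Ha were under the filter and not tested. RT1-Db2, a beta chain, read 0 to 0.02 FPKM in the CL rats, against 0.09, 0.08 and 0.16 FPKM in the FL rats, without overlap. RT1-Ha read 0 to 0.11 FPKM with overlapping groups, and RT1-Hb was not found by its symbol.

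Changes relative to all genes depended on the scaling between rats. Median scaling lowered the median log2 fold change of all genes from 0.29 to 0.08 and quantile normalization to -0.04. The members' median was then 1.58 and 1.37, and 5 of 10 were called higher and 0 lower in each case. Over all genes tested, the calls were 1381 higher and 139 lower with deposited FPKM, 826 and 181 after median scaling, and 453 and 231 after quantile normalization. RT1-Ba, RT1-Da, RT1-Db1 and Cd74 passed the test in each of 14 alternatives, with limma adjusted p-values of at most 0.027, 0.0145, 0.0249 and 0.0137.

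**Figure D2:**
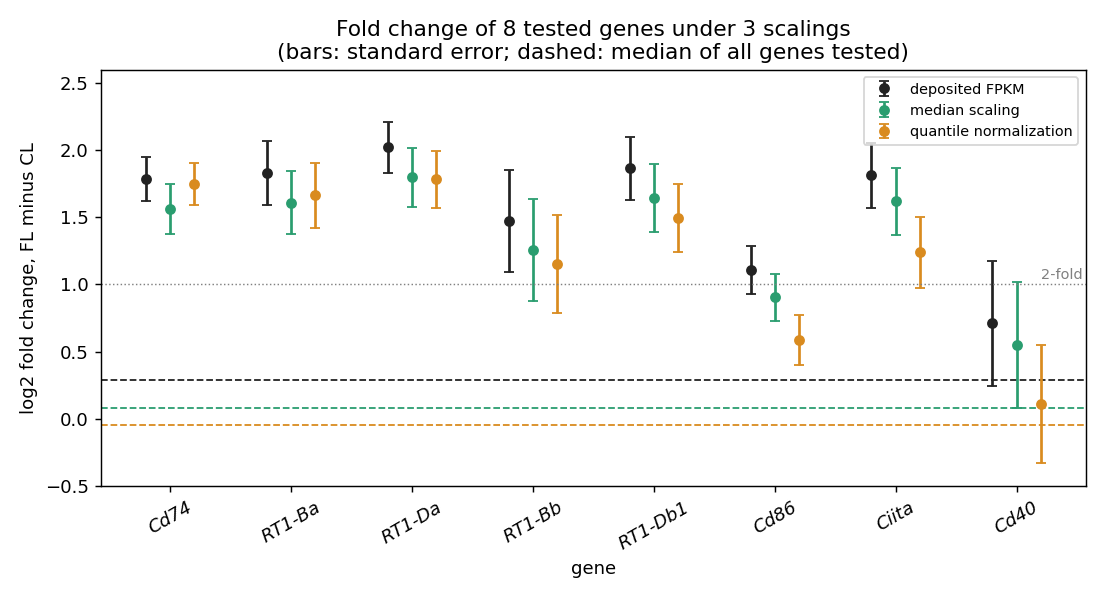
Log2 fold change of the FL from the CL group (vertical axis, points with standard errors from limma) for the 8 members tested, with deposited FPKM (black), median scaling (green) and quantile normalization (orange), and the median of all genes tested as dashed lines at 0.29, 0.08 and -0.04. The 4 classical chains, Cd74 and Ciita stay above the dotted 2-fold line under all 3, whereas Cd86 falls below it with both scalings and Cd40 is below it throughout.

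Genes whose profile over the 6 rats was most like that of Cd74 were sought among the 10534 other genes averaging 1 FPKM or more, by the root mean square difference of log2 values centred on each gene's mean. The nearest 5 were Tes (0.11), a LIM domain protein of focal adhesions, Scimp (0.13), an adaptor of class II signalling in presenting cells, Synpo (0.16), an actin-binding protein, Slamf8 (0.17), a receptor of myeloid cells, and Rhbdf2 (0.17), which escorts the protease that sheds TNF. Of these, Scimp, Slamf8 and Rhbdf2 averaged under 1 FPKM in the CL group, so they entered the ranking through the FL rats. Tes read 1.38, 1.59 and 1.39 FPKM in the CL rats, against 6.07, 5.11 and 4.34 FPKM in the FL rats. Scimp read 0.52, 0.60 and 0.81 FPKM in the CL rats, against 2.85, 2.57 and 2.07 FPKM in the FL rats. In both, FL2 was the highest rat and FL12 the lowest FL rat, as for Cd74. Of the members averaging 1 FPKM or more, RT1-Da came nearest to Cd74, at rank 24 (0.25), followed by RT1-Ba at rank 71, RT1-Db1 at rank 125, Cd86 at rank 152 and RT1-Bb at rank 535. Ciita, which averaged less and was not ranked, differed from Cd74 by 0.16 on the same measure.

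The promoters of the members were read, since 7 of them rose together, from RefSeq (build GRCr8, 250 bases before to 50 after the gene start), where 7 of the 10 members were matched and Ciita, Cd40 and RT1-DMb were not. Class II promoters carry an X box, bound by the RFX complex, and a Y box, bound by NF-Y, and Ciita is recruited to the factors on both. The letters TGATTGG, for a Y box, were found in 5 of the 7 promoters (RT1-Da, RT1-Db1, RT1-Ba, RT1-Bb and RT1-DMa) and in 7.06% of 33469 promoters of the same length, searched on both strands. The letters AGNAAC followed by any 3 bases and TG, for an X box, were found in 3 of the 7 (RT1-Da, RT1-Db1 and Cd74) and in 4.37% of all promoters, and both sets of letters in 2 of the 7 and in 0.326% of all. The shorter letters CCAAT, which overlap the Y box on the opposite strand, were in 6 of the 7 and in 37.5% of all promoters, and none of these letters was found in the promoter of Cd86. The letters were chosen with these promoters in view. A match is a description of sequence and not evidence of binding. The stretches around the Y box, or around CCAAT for Cd74, are printed 5′ to 3′ on the strand of the gene with the matches in capitals, to show where the letters lie. The X and Y letters are 21 bases apart in RT1-Da and 20 in RT1-Db1, and the X and CCAAT letters 17 bases apart in Cd74. They lie at chr20:4515314-4515383 (plus strand) for RT1-Da, chr20:4560225-4560294 (minus strand) for RT1-Db1, chr20:4576962-4577031 (plus strand) for RT1-Ba, chr20:4604162-4604231 (minus strand) for RT1-Bb, chr20:4712382-4712451 (minus strand) for RT1-DMa, which was not called, and chr18:56526967-56527036 (plus strand) for Cd74.
RT1-Da: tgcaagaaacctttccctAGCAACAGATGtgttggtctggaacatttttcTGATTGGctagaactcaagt
RT1-Db1: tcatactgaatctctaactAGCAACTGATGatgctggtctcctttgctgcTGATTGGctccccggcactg
RT1-Ba: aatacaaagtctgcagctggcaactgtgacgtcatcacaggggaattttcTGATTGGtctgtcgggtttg
RT1-Bb: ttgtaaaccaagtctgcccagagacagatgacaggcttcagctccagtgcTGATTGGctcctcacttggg
RT1-DMa: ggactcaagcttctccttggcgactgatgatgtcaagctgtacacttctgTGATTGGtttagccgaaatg
Cd74: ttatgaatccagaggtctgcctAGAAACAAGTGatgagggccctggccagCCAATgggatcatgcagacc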

How the data were processed

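Liver RNA of 3 FL and 3 CL rats was analysed, with rats grouped by their labels. The authors used FASTX-Toolkit for trimming and TopHat2 for alignment, and deposited FPKM per gene from uniquely mapped reads. The methods name GRCH38 as the genome, while gene identifiers are Ensembl's for the rat. No scaling between rats is stated, and 2 columns that no sample names were left out. FPKM are not counts, so log2(FPKM + 0.1) was compared with limma 3.58.1 in R 4.3.3 (trended prior) over 14864 genes averaging 0.1 FPKM or more, with Benjamini-Hochberg adjustment over all of them. The procedure was tested on simulated data, but no outcome of that is reported here, so no result rests on it. Within-rat ratios were compared by exact permutation (scipy 1.17.1). Alternatives were pseudocounts of 1 and 0.01, no filter or a mean of 1 FPKM, median scaling over 9201 genes, quantile normalization, an untrended or a robust limma prior, no fold limit and leaving out each rat. Named were the members, the called and the most abundant genes of each list, and the 5 genes nearest Cd74. Other list genes named were chosen after their values were seen. Members and lists were chosen with earlier results of these data known. Single values of some list genes are not reported here.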

Additional observations from a re-analysis of the deposited data

How the results depend on the processing

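Over 15 alternatives the number of members called higher, 7, lay between 5 and 7, and that of the pathway genes, 12, between 8 and 18. Over all genes tested, 1381 were called higher, and between 453 and 2518 under the alternatives. No alternative called a member lower or turned the direction of the 8 tested. RT1-Ba, RT1-Da, RT1-Db1 and Cd74 were called in each of 14 alternatives, with log2 fold changes from 1.61 to 2.04, 1.78 to 2.15, 1.45 to 2.06 and 1.56 to 1.87. Ciita was called in 12 of 13 (0.87 to 2.06), Cd86 in 11 of 14 (0.59 to 1.20), RT1-Bb in 5 of 14 (1.06 to 1.89) and Cd40 in 0 of 13 (0.11 to 1.08, limma adjusted p from 0.259 to 0.897). Without a filter RT1-DMa and RT1-DMb had log2 fold changes of -0.16 and 0.55 (limma adjusted p = 0.588 and 0.199). The difference between groups in the log2 ratio of Cd74 to the classical chains moved from -0.01 to 0.20 with a pseudocount of 1, that of RT1-Da to RT1-Db1 from 0.16 to 0.39, that of Cd74 to Ptprc from 0.32 to 0.50, and that of RT1-DMa to RT1-DMb from -0.71 to -0.10 with 1 and -2.39 with 0.01. The cause was not tested. No paired analysis was possible because the groups share only 1 rat number, which names a different animal in each. Leaving out a rat moved the difference in Cd74 to Ptprc between 0.11 and 0.47, in Cd74 to Cd68 between -0.09 and 0.33, in Cd74 to the classical chains between -0.08 and 0.11, in RT1-Ba to RT1-Bb between 0.15 and 0.62, in RT1-Da to RT1-Db1 between 0.01 and 0.24 and in RT1-DMa to RT1-DMb between -0.84 and -0.60. The depth of each library is not known here, so no counting error was attached to low values such as those of Cd40, the DM genes and Ifng.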

Other observations

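The RT1-B and RT1-D molecules ordered the rats differently, a pattern picked after the values were seen and given without a test. On the log2 scale the mean of RT1-Ba and RT1-Bb stood -0.03, 1.84 and 0.57 from the mean of RT1-Da and RT1-Db1 in CL5, CL6 and CL7, and 0.32, 0.20 and 0.99 in FL2, FL5 and FL12. CL6 thus had the most RT1-B relative to RT1-D. CL6 also stood apart in 2 of 3 class I genes looked at, with RT1-A2 at 1.89 FPKM against 20.70 to 29.29 FPKM in the other 5 rats, and RT1-A3 at 4.98 FPKM against 0 to 0.02 FPKM. For RT1-A1, CL6 read 6.41 FPKM, within the 5.35 to 9.83 FPKM of the others. FL12, which was next in the ratio of the class II pairs, read 20.70 FPKM for RT1-A2 and was listed at 0 for RT1-A3.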
